A study of Rattus norvegicus with 8 samples.

Results

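The genes described here encode the subunits of the receptors for GABA and glutamate, the main inhibitory and excitatory transmitters of the brain. They were chosen by name: every gene symbol of the array that starts as a GABA-A, GABA-B, AMPA, kainate, delta, NMDA or metabotropic glutamate receptor gene was taken. This gave 48 genes of the 26269 gene names on the array, 21 for GABA and 27 for glutamate, read by 60 probes. One of the 48, Grid2ip, encodes a binding partner and not itself a receptor subunit. Expression was measured in the hypothalamus of Wistar rat mothers, nursing their litters, on postpartum day 7. Of the 8 dams, 4 had been exposed to TCDD, a dioxin that binds the aryl hydrocarbon receptor, and 4 were controls. The labels do not say how much TCDD was given, by which route or when. Each sample was hybridised in a single colour to 1 Agilent Whole Rat Genome array. Its values are given below as the log2 of the signal over the array's 75th percentile, so that 0 is the 75th percentile of that array.

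GABA-A receptors are chloride channels assembled from subunits of the alpha, beta, gamma, delta, epsilon, theta, pi and rho groups, and the subunits chosen set where the receptor sits and which drugs it binds. GABA-B receptors are pairs of a GABA-binding and a G protein-coupling subunit. AMPA, kainate and NMDA receptors are cation channels opened by glutamate, delta receptors organise synapses, and metabotropic glutamate receptors act through G proteins. In the hypothalamus both transmitters set the firing of the neurons that release oxytocin, vasopressin and the releasing hormones.

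Each probe is a 60-base oligonucleotide, and the sequences of the probes on which the results turn are shown first, from 5′ to 3′ as the array design gives them. The first pair belongs to Gabrq and Gabrg1, the genes with the lowest p-values among the receptor genes. The Gabrq probe lies at chrX:158855889-158855948 on the plus strand and the Gabrg1 probe at chr14:39951099-39951158 on the plus strand (rat build rn4, as the array design lists positions).
Gabrq: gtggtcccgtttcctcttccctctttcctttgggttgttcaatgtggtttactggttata
Gabrg1: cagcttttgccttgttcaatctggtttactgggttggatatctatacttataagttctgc

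The second pair belongs to 2 related subunits. The probes of Gabra4 (chr14:39122375-39122434, plus strand) and Gabra6 (chr10:27474072-27474131, minus strand) read a like stretch of 2 alpha subunits, one of which was detected and the other not. Capitals mark the bases that are identical in the other probe when the pair is aligned without gaps, which was the case at 31 of 57 aligned bases.
Gabra4: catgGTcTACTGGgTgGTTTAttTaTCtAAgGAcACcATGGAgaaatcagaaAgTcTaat
Gabra6: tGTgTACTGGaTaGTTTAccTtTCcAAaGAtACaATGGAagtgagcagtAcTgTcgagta

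The next pair has the highest identity found between probes of different receptor genes, 36 of 50 aligned bases or 72.0%. It consists of a probe of Gria2 (chr2:172269214-172269273, minus strand) and the dimmer of the 2 Gria3 probes (chrX:3459714-3459773, minus strand), with capitals as before. The next highest pairs were Gabrb2 with Gabrq (63.8%) and Gabrb2 with Gabrg1 (62.0%). Over all 1757 pairs of probes from different receptor genes the median identity was 39.0%, and 0 pairs reached 75%. Only alignments over at least 40 bases were scored. This leaves out the like stretch that the Gabrq and Gabrg1 probes printed above share in a shorter overlap. Probes were compared with each other and not with the transcripts of other genes. These values therefore do not show how far a probe binds the transcript of a related gene.
Gria2: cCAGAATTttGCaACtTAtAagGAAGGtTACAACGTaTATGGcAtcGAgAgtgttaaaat
Gria3: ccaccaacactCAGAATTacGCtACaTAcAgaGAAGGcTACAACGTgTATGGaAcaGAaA

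The single Gria1 probe is shown because it lies in the stretch of AMPA receptor transcripts that is spliced in alternative flip and flop forms, so its signal can depend on the splice form as well as on the amount of transcript. The array design lists no genome position for it.
Gria1: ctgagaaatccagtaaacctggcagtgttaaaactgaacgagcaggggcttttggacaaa

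Slide, scan and group cannot be told apart in these data, because all 4 TCDD arrays lay on 1 slide and all 4 control arrays on the other. The replicate number is also the array's position on its slide, and position 1 had the lowest 75th percentile on both slides. Between arrays, the 75th percentile of signal lay between 756 and 1077, and 61.7% to 66.7% of probes were well above background. All 5 red blood cell genes had higher means in TCDD dams, with a summed level of 7.55 to 8.42 in TCDD dams and 6.77 to 8.18 in control dams on the log2 scale. Of these, 4 had a limma unadjusted p under 0.05. Over all genes, 51.5% had higher means and 7.95% were higher at that p. Within the groups, all 5 were brightest on TCDD replicate 2 and control replicate 4, so they are not 5 separate observations. The pituitary hormone genes Cga and Tshb varied widely within both groups. The summed level of the pituitary list was 1.70 to 5.53 in TCDD dams and 0.92 to 5.14 in control dams. This sum also takes in listed genes outside the 5 measured ones. Pitx1, a transcription factor gene of the pituitary, varied little and its groups did not overlap, at -0.71 ± 0.10 in TCDD and -0.95 ± 0.10 in control dams (SD, n = 4 each, limma adjusted p = 0.282), while Fshb and Pou1f1 were above background on 0 of 8 arrays. The summed level of 10 neuron markers was 7.33 to 7.51 in TCDD and 7.36 to 7.49 in control dams. This sum was led by its brightest probe, Uchl1, with means of 6.62 in TCDD and 6.61 in control dams. Dim markers such as Rbfox3, with means of -4.02 and -4.20, weighed little in it. The hypothalamic markers Avp, Oxt, Pmch and Hcrt were all measured, and Otp was above background on 0 arrays. The part of these cells in the values below was not tested. In whole tissue, fewer cells of a type and less RNA per cell cannot be told apart.

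Of the 48 genes, 41 were measured, meaning that all 4 arrays of 1 group or of both gave a signal well above background. All 27 genes for glutamate were among them, against 14 of 21 for GABA. The 7 others all encode GABA-A subunits. Gabra6, the alpha subunit of cerebellar granule cells, and Gabre, the epsilon subunit, were above background on 0 of 8 arrays. So were Gabrp, the pi subunit known from reproductive tissues, and the rho subunits Gabrr1, Gabrr2 and Gabrr3, known from the retina. Gabrg3, a gamma subunit, was above background on 2 TCDD arrays and 2 control arrays. The 12 measured GABA-A genes included the alpha subunits Gabra2, Gabra3, Gabra4 and Gabra5, the beta subunits Gabrb1 and Gabrb2, the gamma subunit Gabrg1, the delta subunit Gabrd and the theta subunit Gabrq. Grid2ip was above background on 4 TCDD and 3 control arrays.

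Among the 41 measured genes, 11 had their brightest probe above the 75th percentile of the array on all 8 arrays. They included Gabrb1, Gabrg1, both GABA-B genes Gabbr1 and Gabbr2, the AMPA genes Gria3 and Gria4, the kainate gene Grik5, the NMDA genes Grin2c and Grin2d, and the metabotropic gene Grm4. The brightest probes of 28 genes lay below it on all 8 arrays, and those of Gabrq and Grm2 on both sides. A probe's brightness depends on its own sequence as well as on the transcript. The 2 passing probes of Gabbr1, for example, had signals of 2.72 to 3.06 and 0.48 to 0.73 in TCDD dams on this scale, so no order of subunit levels was drawn from the signals.

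The comparison of TCDD with control dams asks whether dioxin exposure goes with a change in these receptors in the maternal hypothalamus. None of the 41 genes passed the test in limma, a linear model with pooled variance fitted to all 16574 measured genes and adjusted over them by the Benjamini-Hochberg method. The lowest adjusted p among them was 0.360, and over all genes 4 passed, or 0.0241%. At an unadjusted p under 0.05, 2 receptor genes were higher and 0 lower in TCDD dams, whereas over all genes 7.95% were higher and 2.82% lower. The split depended on the processing, with 1 higher and 1 lower in the authors' value table, 0 higher and 1 lower without TCDD replicate 3, and 1 higher and 2 lower without control replicate 4. No receptor gene had groups that did not overlap, against 5.33% of all genes with every TCDD value above every control value and 1.72% with every one below. In all, 19 receptor genes had higher and 22 had lower means in TCDD dams. Their median log2 fold change, TCDD minus control, was -0.02 (range -0.18 to 0.72), beside 0.00 over all genes.

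The precision behind these values can be read from their 95% confidence intervals. Because each group lay on 1 slide, the intervals hold the spread between dams on a slide and no error between slides. For 37 of the 41 genes the interval lay within a 1.5-fold change in either direction. The 4 exceptions were Gabrq, Gabrd, Grid2ip and the NMDA gene Grin3b, whose interval ran from -0.67 to 0.41. Only Gabrd and Grid2ip had intervals that reached a 2-fold change. The standard deviation between dams had a median of 0.149 in TCDD and 0.119 in control dams over the 41 genes.

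**Figure D1:**
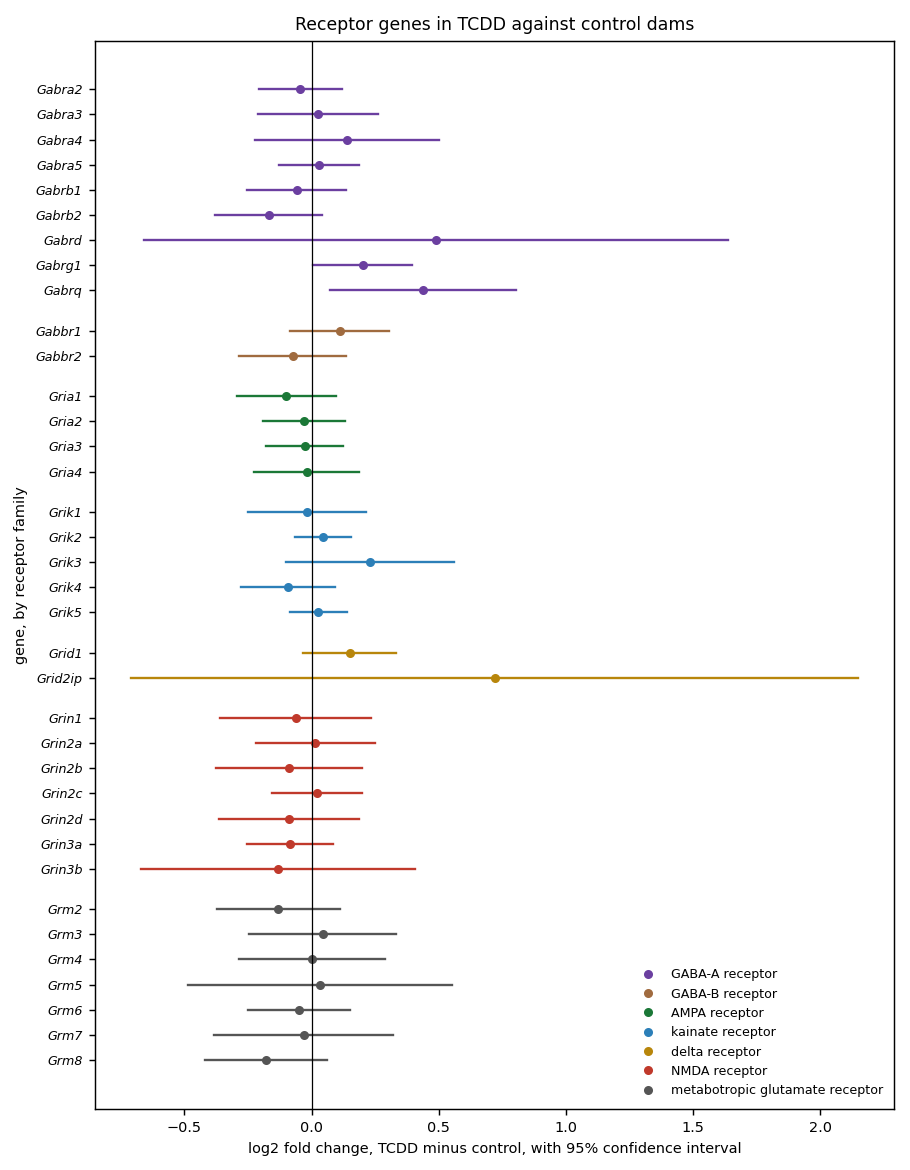
Log2 fold change (TCDD minus control, points) with its 95% confidence interval from limma (lines) for 36 of the 41 measured genes, 1 gene a row, coloured by receptor family (n = 4 dams each). Of those drawn, the intervals of Gabrq and Gabrg1 alone leave out 0, and those of Gabrd and Grid2ip are the widest.

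The GABA-A genes held the 2 lowest p-values of the receptor genes. Gabrq, the theta subunit, which is found in the hypothalamus and in monoamine cell groups of the brain stem, had log2 signals of -0.07, -0.13, 0.13 and 0.03 in TCDD dams, against -0.92, -0.46, -0.12 and -0.30 in control dams. Control replicate 1 was the lowest, and the groups overlapped because control replicate 3 lay just above TCDD replicate 2. The means were -0.01 ± 0.12 in TCDD and -0.45 ± 0.34 in control dams (SD, n = 4 each), which gives 0.44 as the log2 fold change, or 1.36-fold (SE 0.16, limma unadjusted p = 0.0247, adjusted p = 0.360). Without control replicate 1 the difference was 0.28 (adjusted p = 0.499), and over 20 alternatives its adjusted p ran from 0.228 to 0.601.

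Gabrg1, a gamma subunit of restricted distribution in the brain, had log2 signals of 0.28, 0.38, 0.45 and 0.66 in TCDD dams and 0.18, 0.19, 0.31 and 0.30 in control dams. TCDD replicate 4 was the highest, while TCDD replicate 1 lay below 2 of the control dams. The log2 fold change was 0.20 (SE 0.085, limma unadjusted p = 0.0452, adjusted p = 0.448). Without TCDD replicate 4 it was 0.13 (adjusted p = 0.627), and its adjusted p ran from 0.228 to 0.824 over the alternatives. Neither gene therefore passed the test under any of them.

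The other alpha, beta and gamma genes differed by little. The alpha genes Gabra2, Gabra3 and Gabra5 had log2 fold changes of -0.05, 0.03 and 0.03. Gabra4, whose product forms receptors outside synapses together with the delta subunit, stood at 0.14 (SE 0.16). The beta genes, whose products are found in most GABA-A receptors, included Gabrb1 at -0.06 and Gabrb2 at -0.17. The lowest adjusted p among these genes was 0.588, for Gabrb2.

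**Figure D2:**
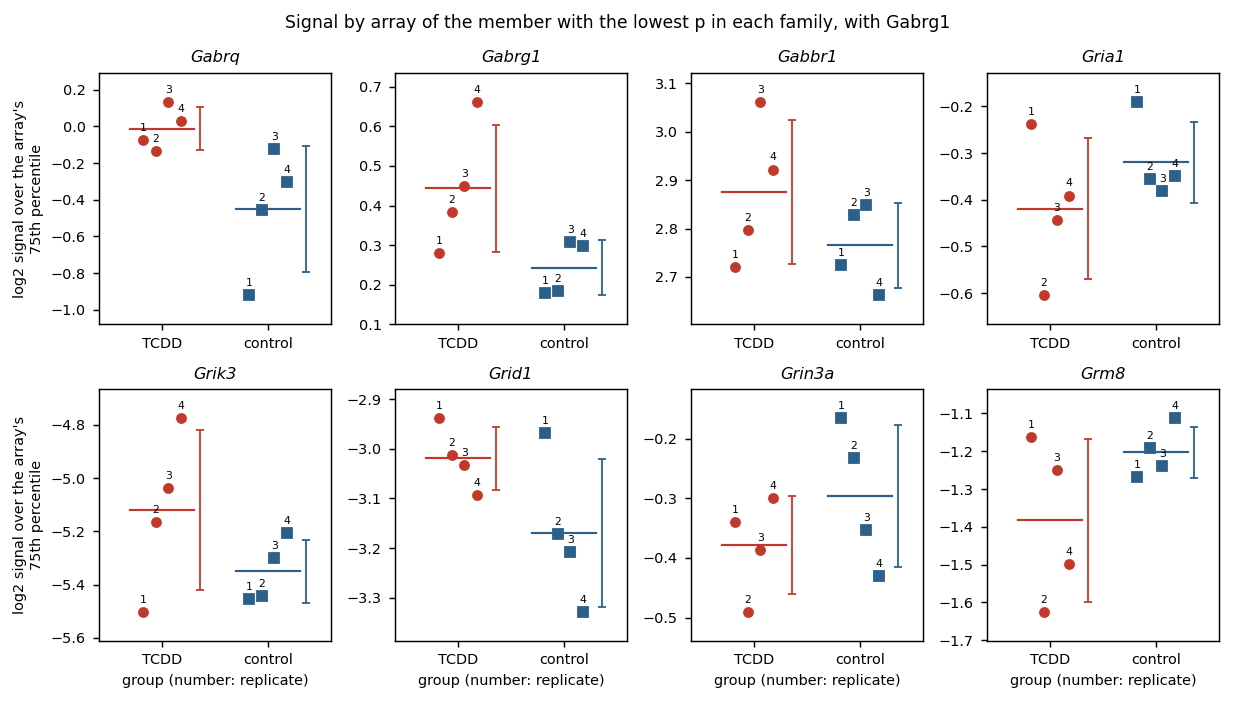
Log2 signal over the array's 75th percentile (y axis, its own range in each panel) in TCDD dams (circles, left) and control dams (squares, right) for Gabrg1 and for the gene with the lowest p in each receptor family. Numbers are replicates, horizontal lines group means and vertical bars 1 SD (n = 4 each). The groups overlap in every panel, in Gabrq by 1 pair of values only.

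Most GABA-A genes lie in clusters that arose by duplication, and the fold changes were also read by cluster. On chromosome 14 the probes of Gabrb1, Gabra4, Gabra2 and Gabrg1 lay within 1421 kb, with log2 fold changes from -0.06 to 0.20. Gabrq shares a 503 kb stretch of the X chromosome with Gabra3, which stood at 0.03, and Gabre, which was not measured. The measured neighbours had smaller differences than Gabrq and Gabrg1. Because these 2 genes were singled out for their low p-values, this says nothing about the clusters. The difference between neighbours was not tested.

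Gabrd, the delta subunit of receptors outside synapses, had the widest spread of the GABA genes. Its log2 signals were -2.58, -1.57, -1.25 and -2.04 in TCDD dams and -3.16, -1.49, -1.47 and -3.29 in control dams. Replicates 2 and 3 were the brightest in both groups, and the groups overlapped. The means were -1.86 ± 0.58 in TCDD and -2.35 ± 1.01 in control dams (SD, n = 4 each), and the log2 fold change was 0.49 (SE 0.50, limma adjusted p = 0.806). Without control replicate 4 it was 0.18 and without control replicate 3 it was 0.79.

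Gabrd is expressed in relay neurons of the thalamus, which borders the hypothalamus, and the order of arrays was set beside that of the 9 measured genes of a thalamus list. Replicates 2 and 3 were the brightest pair of both groups for 3 of the 9, Prkcd, Tcf7l2 and Zic1, and for 1 of the other 40 receptor genes, Grm2. Taken group by group, it held for 3 of the 9 in TCDD dams and for 7 in control dams. Among the other 40 receptor genes it held for 3 in TCDD dams and for 12 in control dams. Prkcd, a protein kinase C gene, had log2 signals of -1.11, 0.10, 0.20 and -0.44 in TCDD dams and -1.51, 0.02, 0.07 and -1.04 in control dams. Tcf7l2, a transcription factor gene of thalamic neurons, had -0.22, 0.55, 0.62 and 0.36 in TCDD dams and -0.22, 0.56, 0.49 and -0.49 in control dams. Other genes of the list had other orders: Tnnt1, for example, had log2 signals of -0.05, -1.67, 0.34 and -1.65 in TCDD dams and 0.21, -1.87, -1.94 and -1.56 in control dams. Rora and Cbln1 were brightest on replicate 1 and dimmest on replicate 2 in TCDD dams. Gabra4 shared the low replicates 1 and 4 in control dams, with -2.72, -2.56, -2.50 and -2.24 in TCDD and -2.95, -2.51, -2.30 and -2.82 in control dams. All 9 measured genes of the thalamus list had higher means in TCDD dams, by 0.00 to 0.53 on the log2 scale, and 0 of them had an unadjusted p under 0.05. Over all genes, 51.5% had higher means. The brightest of the list, Calb2 and Cbln1, stood at 0.00 and 0.06, and the largest difference, that of Tnnt1, had an SE of 0.62. The summed level of the list, led by its brightest probe (Calb2), was 4.31 to 4.53 in TCDD and 4.14 to 4.47 in control dams. The order of arrays is a description of these 8 samples, in which replicate number and slide position cannot be told apart, and the part of thalamic tissue or of position in the Gabrd values was not tested.

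**Figure D3:**
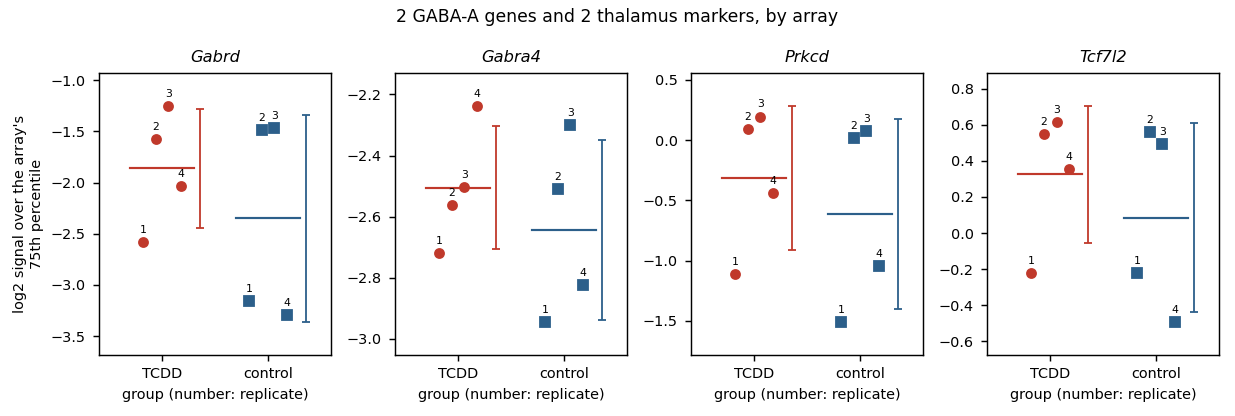
Log2 signal over the array's 75th percentile (y axis, its own range in each panel) of the GABA-A genes Gabrd and Gabra4 and the thalamus markers Prkcd and Tcf7l2 in TCDD dams (circles, left) and control dams (squares, right), with replicate numbers, group means (horizontal lines) and 1 SD (bars, n = 4 each). Gabrd, Prkcd and Tcf7l2 are brightest on replicates 2 and 3 of both groups.

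The 2 GABA-B genes had log2 fold changes of opposite sign, and neither passed. Gabbr1, which binds GABA, had log2 signals of 2.72, 2.80, 3.06 and 2.92 in TCDD dams and 2.72, 2.83, 2.85 and 2.66 in control dams, and the groups overlapped (log2 fold change 0.11, SE 0.084, limma adjusted p = 0.727, and 0.05 without TCDD replicate 3). Gabbr2, which couples to the G protein, stood at -0.07 (SE 0.091, adjusted p = 0.845). The log2 signal of Gabbr1 minus that of Gabbr2 on the same array was -0.79, -0.76, -0.66 and -0.82 in TCDD dams and -0.95, -1.03, -0.94 and -0.85 in control dams. The difference between the group means was 0.185, and every TCDD value lay above every control value. With the brightest probe of each gene, this was the only one of 10 such subunit pairs whose groups did not overlap, and it was not tested. The second passing Gabbr1 probe stood at -0.03 (SE 0.087), opposite in sign to the first. Its log2 signals were 0.681, 0.478, 0.726 and 0.665 in TCDD dams and 0.678, 0.639, 0.845 and 0.497 in control dams. With this probe in place of the first, the groups of the pair with Gabbr2 overlapped. The remaining Gabbr1 probe, made for a transcript deposited as receptor 1g, was above background on 2 TCDD and 3 control arrays.

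The groups of the other 9 pairs overlapped. Grin2a minus Grin2b, whose products give NMDA receptors of faster and slower closing, averaged 1.69 ± 0.15 in TCDD and 1.59 ± 0.37 in control dams (SD, n = 4 each). Gria1 minus Gria2 averaged -0.02 ± 0.11 in TCDD and 0.05 ± 0.08 in control dams. These differences compare the same 2 probes between dams and give no ratio of the 2 transcripts.

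All 4 AMPA genes, which carry fast excitation, had lower means in TCDD dams by small amounts, and 0 passed. Gria1 had log2 signals of -0.24, -0.61, -0.44 and -0.39 in TCDD dams and -0.19, -0.36, -0.38 and -0.35 in control dams. TCDD replicate 2 was the lowest, and TCDD replicate 1 lay within the control values (log2 fold change -0.10, SE 0.085, limma adjusted p = 0.758, and -0.04 without TCDD replicate 2, -0.06 without control replicate 1 and -0.16 without TCDD replicate 1). Gria2, which sets calcium permeability, stood at -0.03, Gria3 at -0.03 and Gria4 at -0.02, and each of these 3 changed sign in some of the alternatives. The second Gria2 probe, named after its values were seen, had log2 signals of -4.01, -3.84, -3.87 and -3.83 in TCDD dams and -3.79, -3.81, -3.72 and -3.74 in control dams. Its groups did not overlap, with a log2 fold change of -0.12 (SE 0.057, limma unadjusted p = 0.0606, adjusted p = 0.501 over all probes). The second Gria3 probe stood at 0.06, and the second Gria4 probe, which reads other transcript variants than the first, at -0.06.

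Of the kainate genes, Grik3 had the lowest p. Its log2 signals were -5.50, -5.17, -5.04 and -4.78 in TCDD dams and -5.46, -5.44, -5.30 and -5.21 in control dams, so TCDD replicate 1 was the lowest of all 8 (log2 fold change 0.23, SE 0.14, limma adjusted p = 0.654). Without TCDD replicate 1 it was 0.36 (adjusted p = 0.324) and without TCDD replicate 4 it was 0.12. With normexp background correction it stood at -0.07 (adjusted p = 0.952). Grik1 and Grik2, whose products form the channel, stood at -0.02 and 0.05. Grik4 and Grik5, whose products join them and raise the affinity for glutamate, stood at -0.09 and 0.03.

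Of the delta group, Grid1 had log2 signals of -2.94, -3.01, -3.03 and -3.09 in TCDD dams and -2.97, -3.17, -3.21 and -3.33 in control dams. Control replicate 1 lay among the TCDD values (log2 fold change 0.15, SE 0.080, limma adjusted p = 0.578). Without control replicate 4 it was 0.10. Grid2ip had the highest fold change of the 41 genes, 0.72, and the largest error (SE 0.62, adjusted p = 0.762). Its log2 signals were -5.23, -4.55, -3.73 and -4.47 in TCDD dams and -5.35, -4.12, -4.37 and -7.02 in control dams, the last from the array on which the probe was not above background. Without control replicate 4 it stood at 0.12.

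Of the 7 NMDA genes, 5 had lower means in TCDD dams, and 0 passed. Grin3a, whose product lowers the calcium flow of NMDA receptors, had the lowest p, with log2 signals of -0.34, -0.49, -0.39 and -0.30 in TCDD dams and -0.17, -0.23, -0.35 and -0.43 in control dams. The groups overlapped (log2 fold change -0.08, SE 0.074, limma adjusted p = 0.768), and its second probe gave -0.09. It was -0.04 without control replicate 1, -0.05 without TCDD replicate 2 and -0.13 without control replicate 4. Grin1, the subunit that every NMDA receptor needs, stood at -0.06 (SE 0.13). The glutamate-binding subunits stood at 0.01 for Grin2a, -0.09 for Grin2b, 0.02 for Grin2c and -0.09 for Grin2d. Grin3b stood at -0.13 (SE 0.23).

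The metabotropic genes were alike in this. Grm8, an inhibitory receptor of nerve endings, had log2 signals of -1.16, -1.62, -1.25 and -1.497 in TCDD dams and -1.27, -1.19, -1.24 and -1.11 in control dams. TCDD replicates 2 and 4 lay below all control dams, and replicates 1 and 3 did not (log2 fold change -0.18, SE 0.10, limma adjusted p = 0.619). Without TCDD replicate 2 it was -0.10 and without TCDD replicate 1 it was -0.25 (adjusted p = 0.384). Grm5, a group I gene whose product raises calcium in the cell, stood at 0.03 (SE 0.23). The group II genes Grm2 and Grm3 stood at -0.13 and 0.04. The remaining group III genes stood at 0.00 for Grm4, -0.05 for Grm6 and -0.03 for Grm7. Adjusted p-values of the family ran from 0.619 to 0.999.

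In 11 of the 41 genes more than 1 probe passed the filter, and these probes gave a second reading of the same comparison. The sign agreed in 7 genes and was opposite in 4, namely Gabbr1, Gria3, Grik1 and Grik2. The gap between a gene's probes ran from 0.007 for Grin3a to 0.138 for Gabbr1 on the log2 scale. Opposite signs thus arose among differences no larger than 0.11.

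**Figure D4:**
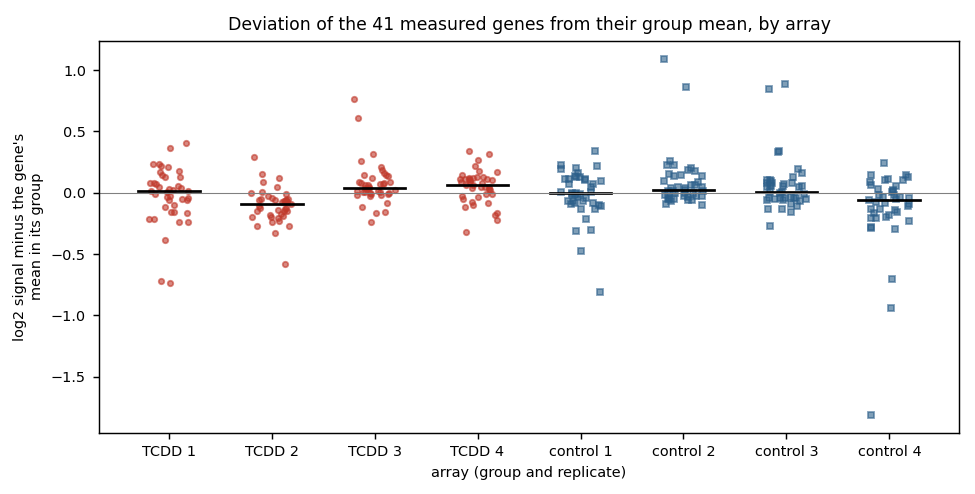
Log2 signal of each of the 41 measured genes minus that gene's mean in its group (y axis) on each TCDD array (circles, left) and control array (squares, right), with the median as a black line. The medians are lowest on TCDD replicate 2 and control replicate 4.

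The dams of a group differed by as much as the groups did. TCDD replicate 2 was the lowest of its group for 21 of the 41 genes, with a median deviation from the group mean of -0.09. Control replicate 4 was the lowest for 20 genes, at -0.06, and TCDD replicate 4 the highest for 20, at 0.07. TCDD replicate 2 and control replicate 4 were also the arrays with the highest red blood cell level of their groups, 8.42 and 8.18. The same held for the summed levels of the pituitary (5.53 and 5.14), choroid plexus (2.17 and 1.53) and microglia (4.64 and 4.70) lists. It did not hold for the remaining lists. On TCDD replicate 4, however, the red blood cell level was 8.22. The part of blood or of these other cells in the receptor values was not tested. Without TCDD replicate 2 the median log2 fold change of the 41 genes was 0.03.

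The genes that act with GABA receptors were described from a list of 20 names, of which 19 were measured. Of these, 13 had higher and 6 lower means in TCDD dams, 0 passed, and the median was 0.02. Nlgn2, the adhesion protein that builds inhibitory synapses, had log2 signals of 1.39, 1.40, 1.53 and 1.42 in TCDD dams and 1.05, 1.01, 1.12 and 1.34 in control dams. Its groups did not overlap (log2 fold change 0.31, SE 0.079, limma unadjusted p = 0.00467, adjusted p = 0.212). Gabarapl2, of the family that carries receptors to the membrane and takes part in autophagy, had 4.18, 4.19, 4.28 and 4.29 in TCDD dams and 3.94, 3.94, 4.16 and 4.14 in control dams, also without overlap (0.19, SE 0.069, adjusted p = 0.355). These 2 were the only genes of the list at an unadjusted p under 0.05 or without overlap. Over all genes, 7.95% were higher at that p, and 5.33% had every TCDD value above every control value. The GABA-synthesising enzymes stood at -0.01 for Gad1 and 0.09 for Gad2, the vesicular transporter Slc32a1 at 0.04 and the scaffold gene Gphn at 0.13 (SE 0.079).

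Of 40 genes that act with glutamate receptors, 33 were measured, 16 higher and 17 lower in TCDD dams, with a median of 0.00 and 0 that passed. Nsf, which keeps AMPA receptors at the membrane and frees vesicle fusion complexes, had log2 signals of -0.55, -0.96, -0.58 and -0.75 in TCDD dams and -0.44, -0.44, -0.44 and -0.59 in control dams. Control replicate 4 lay just below 2 TCDD dams (log2 fold change -0.24, SE 0.094, limma unadjusted p = 0.0365, adjusted p = 0.414). Nsf was the only gene of this list at an unadjusted p under 0.05, and 2.82% of all genes were lower at that threshold. The vesicular glutamate transporter of the hypothalamus, Slc17a6, stood at -0.02 (SE 0.070). Slc17a7 and Slc17a8, its relatives, were above background on 0 of 8 arrays.

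The aryl hydrocarbon receptor, to which TCDD binds, recognises a DNA element with the core GCGTG. RefSeq promoters on assembly GRCr8 were at hand for 31 of the 48 genes (32 promoters, since Grid2ip has 2). In the 250 bases before the start, 11 of the 32 held the core on either strand (34.4%), beside 25.9% of all 33469 promoters, with a GC content of 58.6% against 52.2%. The promoter of Gabra4 held it 4 times, that of Grm7 3 times and those of Grin1 and Grin2d 2 times each. Those of Gabrd, Gabbr1, Gabbr2, Grid2ip, Grik3 and Grin3a held it 1 time each, while those of Gabrq and Gabrg1 did not hold these letters. A match of 5 letters is a description of the sequence and no evidence of binding.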

How the data were processed

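The members, gene lists and tests were chosen with earlier results of these data known. The deposited scanner files hold spot intensity on a linear scale from Agilent Feature Extraction 10.7.1.1, background-subtracted and corrected for spatial trends by the authors per the file headers. Depth per array is the signal over background given in the report, and 4 arrays a group limit the precision. Analysis took log2 of the processed signal minus the array's 75th percentile over non-control spots, averaged spots of a probe without those marked as outliers, and kept probes well above background on all 4 arrays of either group. The brightest probe stood for a gene name. Groups were compared with limma 3.58.1 in R 4.3.3 (lmFit, eBayes, 2-sided, group as the only term), with Benjamini-Hochberg adjustment over 16574 genes and a threshold of 0.05. No pseudocount was used. The test was checked on simulated data.

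The authors' deposited value table (intensity, with all columns at a median of 65.06, scale linear, centring beyond that not stated in the sources used here) was an alternative. Others concerned normexp background correction (offset 50), quantile and median scaling, the filter, the choice of probe, trended variances, weights for arrays, a block for the replicate number, and leaving out 1 array at a time. Taking the 75th percentile over probes and leaving out Grid2ip were added after the data were seen. Same-numbered arrays share a slide position. Their deviations from the group means correlated over genes at r of -0.05 to 0.23, over 0.1 for numbers 1 and 4 only, so the numbers were not taken as pairs. By the rule for named genes, values by array are given for genes at an unadjusted p under 0.05 and for the lowest p of each family. Those of Gabrd, Gabra4, Grid2ip, the second Gria2 probe and the thalamus markers were chosen after they were seen. Gene names are those of the array design. The values of 5 of the measured genes are not reported here by name, but they count in all totals. Per the labels' protocols, RNA was labelled with Cy3 after linear amplification. Plots came from matplotlib 3.10.9 under Python 3.11.15.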

Additional observations from a re-analysis of the deposited data

Results flagged for a closer look

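A gap test within groups of 4 (Dixon's, at its 95% critical value) marked 3 of the 82 groups of receptor gene values, where chance marks about 5% of groups. The value is the gap of the end sample to its neighbour divided by the range of the group. TCDD replicate 2 stood apart for the GABA-A gene Gabra3, at -2.92 against -2.50 to -2.47 in the other TCDD dams (0.924). Control replicate 1 stood apart for Gria1, at -0.19 against -0.38 to -0.35 in the other control dams (0.834). The same array stood apart for the kainate gene Grik4, at -3.30 against -3.57 to -3.54 (0.916).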

How the results depend on the processing

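No receptor gene passed the adjusted threshold under the 22 alternatives run. The 4 genes that passed over all genes became 20 with normexp, 27 with median scaling, 34 with trended and robust variances, 91 with array weights, 0 without the filter on dim probes, 0 with the replicate block and 2 without both arrays of number 1, and 0 to 8 with each array left out. The 2 receptor genes at an unadjusted p under 0.05 became 1 with normexp, 1 without the filter, 1 with the 75th percentile over probes, 4 with array weights, 4 with the replicate block and 5 without both arrays of number 1, and 0 to 4 with each array left out. The replicate block is also a block for slide position. The causes were not tested. The sign of the log2 fold change held under all of its alternatives for 19 receptor genes and changed for 22. Their median stayed between -0.05 and 0.03. Dim probes limit Grid2ip, Grik3 and the 7 genes not measured. The next lowest mean log2 signals in control dams were those of Grin2b (-4.82), Gabrb2 (-4.40) and Grin1 (-4.15), against -5.35 for Grik3.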
